A study of Rattus norvegicus with 12 samples.

Results

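The genes described here are 10 genes grouped as feedback regulators, which cells induce quickly under stress and of which some damp the signal that induced them: Dusp1, Dusp2, Dusp5, Nfkbia, Nfkbiz, Tnfaip3, Zfp36, Btg2, Ier2 and Ier3. They were chosen by name, with no measured value in the rule but with earlier results of these data known. Of the 10, 9 had a probe of that name among the 26612 gene names on the array. Tnfaip3 had none. A probe that the array files call LOC683206 carries a gene number that RefSeq now names Tnfaip3, and it is reported separately under its array name. Cervix cells of 12 Sprague Dawley rats, 3 in each of 4 groups, had been dispersed and their RNA measured on 1-colour Agilent rat arrays. NP rats were nonpregnant and in proestrus, and D21 rats were pregnant, on the day before birth. From each state, 3 rats gave all dispersed cells (whole cervix) and 3 other rats gave the cells left after macrophages (Mφs) were removed with the ED1 antibody and magnetic beads (Mφ-depleted cervix). A rat number refers to its own group, since the same number in 2 groups names different animals.

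Every rat was perfused and every cervix was dispersed with collagenase and DNase at body temperature. Whole-cervix cells were then frozen directly, whereas Mφ-depleted cells were first washed, held with antibody and held again with beads in the cold. The difference between a Mφ-depleted and a whole group therefore covers the loss of cells and the extra handling together, and these cannot be told apart. In such bulk samples, fewer cells of a type and less RNA per cell cannot be told apart either.

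Mitogen-activated protein kinases (MAPKs) and the transcription factor NF-kB carry signals from cytokines, growth factors and physical or chemical stress to the nucleus. Among the genes they switch on within minutes are their own inhibitors, so that a short stimulus gives a short response. The dual-specificity phosphatases (Dusp genes) remove phosphate from MAPKs, and the inhibitor IkBα, product of Nfkbia, holds NF-kB in the cytoplasm. Tristetraprolin, product of Zfp36, and Btg2 bring about decay of messenger RNA. In the cervix, ripening before birth is known for leukocyte entry and inflammatory signals, and macrophages, fibroblasts, smooth muscle and epithelium can all express these regulators.

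The promoters of the regulators are shown because members fall into sets by the motif they hold. RefSeq promoter windows of the GRCr8 build, from 250 bases before to 50 bases after the start of the gene, were found for 9 members; Ier3 had none in the table used. Both strands were searched for the cAMP response element (CRE, TGACGTCA), the AP-1 motif (TGANTCA), the TATA box (TATAAA), the CArG box bound by serum response factor, and the NF-kB motif. The CRE was present in 3 of 9 member promoters (Dusp1, Btg2 and Ier2) and in 1.83% of all 33469 promoters. The NF-kB motif was present in 3 (Nfkbia, Nfkbiz and Tnfaip3) and in 4.18% of all promoters. The CArG box was present in 2 (Dusp5 and Zfp36) and in 1.64% of all promoters. The AP-1 motif was found in Tnfaip3 alone and in 7.33% of all promoters. The TATA box was found in Nfkbia alone, on the opposite strand after the start, and in 14.2% of all promoters. These are matches of letters, not binding sites. The sequences below give the 250 bases before the start of 6 members, 5′ to 3′ on the strand of the gene, with CRE, CArG box and NF-kB matches in capitals.
Dusp1, chr10:17184603-17184852, plus strand: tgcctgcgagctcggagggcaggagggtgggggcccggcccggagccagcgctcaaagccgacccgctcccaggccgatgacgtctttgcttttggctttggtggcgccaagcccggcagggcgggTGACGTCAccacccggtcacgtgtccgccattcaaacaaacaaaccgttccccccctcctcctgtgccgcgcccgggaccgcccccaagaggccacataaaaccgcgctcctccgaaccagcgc
Btg2, chr13:48087691-48087940, minus strand: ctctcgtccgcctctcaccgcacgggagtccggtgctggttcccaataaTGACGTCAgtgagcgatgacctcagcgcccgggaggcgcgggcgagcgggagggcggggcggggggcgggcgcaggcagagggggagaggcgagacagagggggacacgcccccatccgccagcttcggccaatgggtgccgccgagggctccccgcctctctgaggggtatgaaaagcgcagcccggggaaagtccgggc
Ier2, chr19:40399123-40399372, plus strand: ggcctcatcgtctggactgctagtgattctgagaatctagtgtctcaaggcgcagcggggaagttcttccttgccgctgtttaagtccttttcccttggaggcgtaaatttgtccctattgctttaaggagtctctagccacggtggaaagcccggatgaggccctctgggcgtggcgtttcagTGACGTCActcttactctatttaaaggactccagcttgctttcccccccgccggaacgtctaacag
Dusp5, chr1:262543524-262543773, plus strand: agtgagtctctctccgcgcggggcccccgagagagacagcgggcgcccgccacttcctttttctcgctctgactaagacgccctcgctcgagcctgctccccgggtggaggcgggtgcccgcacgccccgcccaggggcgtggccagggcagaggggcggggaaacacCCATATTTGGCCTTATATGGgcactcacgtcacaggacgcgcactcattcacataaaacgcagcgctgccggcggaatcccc
Nfkbia, chr6:78597073-78597322, minus strand: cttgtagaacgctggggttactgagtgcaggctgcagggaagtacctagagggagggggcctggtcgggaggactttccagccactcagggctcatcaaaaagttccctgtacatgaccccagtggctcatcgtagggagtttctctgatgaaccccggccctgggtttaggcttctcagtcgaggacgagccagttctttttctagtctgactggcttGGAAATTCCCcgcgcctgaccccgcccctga
Nfkbiz, chr11:58251471-58251720, plus strand: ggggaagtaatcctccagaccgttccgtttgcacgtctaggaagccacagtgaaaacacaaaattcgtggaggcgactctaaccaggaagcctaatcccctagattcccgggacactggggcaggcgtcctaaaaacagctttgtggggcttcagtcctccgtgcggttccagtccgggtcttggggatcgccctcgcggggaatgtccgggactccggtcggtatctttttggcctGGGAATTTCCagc
The CRE lay at -124 to -117 in Dusp1, at -201 to -194 in Btg2 and at -66 to -59 in Ier2, counted from the start. Dusp5 had a pair of CArG boxes side by side, at -82 to -73 and -72 to -63. The NF-kB motif lay at -31 to -22 in Nfkbia, on the opposite strand, and at -13 to -4 in Nfkbiz.

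Values are the log2 of a probe's signal over the 75th percentile of its array, so that 0 is the 75th percentile, and levels of different probes are not compared. Each member had 1 probe of 60 bases, which the array files place in the rn4 build: Dusp1 at chr10:16944342-16944661, Dusp2 at chr3:114839775-114839834, Dusp5 at chr1:259767436-259767495, Nfkbia at chr6:75730438-75730497, Nfkbiz at chr11:45810786-45810845, Zfp36 at chr1:83486788-83486847, Btg2 at chr13:47027022-47027081, Ier2 at chr19:25160648-25160707 and Ier3 at chr20:3076832-3076891. The slides numbered 4 and the scan days 3, between 44.9% and 61.8% of probes were well above background, and 75th percentile intensities ranged from 290 to 1171. Scan day 3 held every whole array and 1 Mφ-depleted array of each state. Markers of Mφs had been set as a list of 16 genes. Of the 14 tested in D21 rats, 12 fell with depletion, and of the 12 tested in NP rats, 11 fell. The mean level of 14 Mφ markers was 0.59 to 1.41 on NP whole arrays and 1.16 to 1.32 on D21 whole arrays, against -4.02 to -3.47 in Mφ-depleted NP and -3.75 to -2.68 in Mφ-depleted D21 rats. Of the 15 on the array, 6 in NP and 4 in D21 rats cleared background in no Mφ-depleted sample. Cd68, which encodes the ED1 antigen, itself differed by 0.15 in D21 rats (SE 0.62, limma adjusted p = 0.882) and by -0.54 in NP rats (SE 0.62, limma adjusted p = 0.530). Smooth muscle and fibroblast markers were lower as well. The mean of 7 smooth muscle markers was 4.87 to 5.44 on NP whole and 4.29 to 4.69 on D21 whole arrays, against 0.06 to 0.78 and 1.48 to 2.51 after depletion, and 7 of 7 were called lower in NP and 5 of 7 in D21 rats. The mean of 8 fibroblast markers was 4.30 to 4.48 and 4.07 to 4.49 on whole arrays, against -0.54 to 0.85 and 2.51 to 3.59 after depletion, and 7 of 8 were called lower in NP and 2 of 8 in D21 rats. Of 9 epithelial markers, 6 were called higher with depletion in NP and 4 in D21 rats, where Krt8 (-0.99), Epcam (-0.75) and Krt19 (-0.10) had differences below 0 that were not called. Their mean level was 3.102 to 3.330 on NP whole, 4.076 to 4.533 on D21 whole, 4.671 to 5.186 on NP Mφ-depleted and 5.212 to 5.361 on D21 Mφ-depleted arrays, and the part of cell mixture in the results was not tested.

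In Mφ-depleted cervix, which had lost signal of smooth muscle and fibroblast as well as of Mφs, levels of most of the regulators were higher than in whole cervix. Dusp1, Dusp5, Nfkbia, Nfkbiz, Btg2 and Ier2 rose with depletion in each state, by 2.43- to 12.2-fold in D21 and by 3.14- to 10.9-fold in NP rats. Ier3, a stress-induced gene that modulates cell death and both pathways, passed in neither. Dusp2 and Zfp36 were too dim to be tested. A gene was called when its unadjusted p in limma was below 0.01 and its change at least 2-fold, among genes that cleared background by the scanner's rating (well above background) in all 3 rats of either group compared. Differences are coded as Mφ-depleted minus whole, the opposite of the study's own ratio, and as D21 minus NP.

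In D21 rats, 6 of the 7 members tested were called higher in Mφ-depleted cervix and 0 lower, against a background of 7.71% of 14262 genes called higher and 10.0% called lower. The median difference of the 7 was 2.34, against 0.06 over all genes tested. In NP rats, 6 of 7 were called higher and 0 lower, against 10.8% of 13419 genes higher and 13.6% lower, and the medians were 1.77 and 0.04. Nfkbiz passed the NP filter through the Mφ-depleted group alone, and of the 6 members that cleared background in all 6 NP samples, 5 were called. In both comparisons the 6 called members also passed a limma adjusted p of 0.05, and none of the 7 had an unadjusted p below 0.05 in the lower direction. By the methods' t-test, at the same threshold, 4 members were called in D21 rats and 3 in NP rats, 0 of them lower. The calls lost by that test were those of Nfkbia and Nfkbiz in each state and of Dusp5 in NP rats. Without D21 Mφ-depleted rat 4 the D21 background rose to 2371 genes higher and 2218 lower of 15732 tested, and the members called numbered 6 again.

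Between the states, fewer members were called in whole cervix. Dusp1 and Btg2 were higher in D21 than in NP rats, 2 of 7 members called higher and 0 lower, against 5.38% of 14063 genes called higher and 3.09% called lower. The median of the 7 was 0.69 against -0.08 for all genes tested, and 3 members had an unadjusted p below 0.05 (Dusp1, Btg2 and Ier3). By the methods' t-test 0 members were called. The same whole arrays enter this comparison and the depletion comparisons, so the values are given side by side and not as independent evidence.

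Among Mφ-depleted samples, Ier2 and Ier3 were called higher in D21 than in NP rats and 0 members lower, against 5.45% of 13413 genes higher and 2.07% lower. The median was 1.10 against 0.02 for all genes tested. Ier2 also passed an adjusted p of 0.05 and Ier3 did not. Members called changed to 4 without NP Mφ-depleted rat 6, to 1 without NP Mφ-depleted rat 5 or 7 or D21 Mφ-depleted rat 1, and to 0 without D21 Mφ-depleted rat 2. The methods' t-test called 0. Fibroblast and smooth muscle markers moved with this comparison, with 6 of 8 and 5 of 6 called higher in D21. The mean level of fibroblast markers was 2.51 to 3.59 in D21 against -0.54 to 0.85 in NP Mφ-depleted rats, and that of smooth muscle markers 1.48 to 2.51 against 0.06 to 0.78. Their part was not tested.

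The change with depletion could not be shown to differ between the states for any member. In the test of the difference of differences, 0 of 7 members passed a limma adjusted p of 0.05, against 2.40% of 14572 genes, and 1 of 7, Dusp1, had an unadjusted p below 0.05. The plot of group differences shows the 4 comparisons for each gene with its interval.

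**Figure D1:**
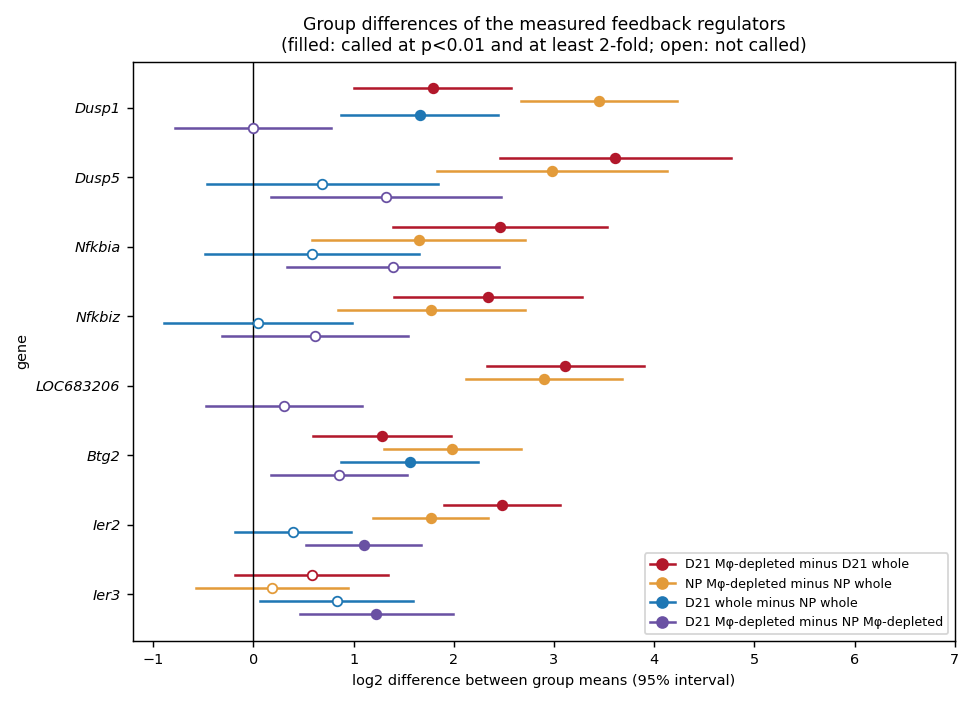
Log2 difference between group means (x axis) for 7 members and LOC683206 (y axis), with 95% intervals from limma; filled points were called and open points were not. The intervals of the depletion comparisons lie to the right of 0 for each gene but Ier3, and LOC683206 has no point for D21 whole minus NP whole, where it was not tested.

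Dusp1 encodes a nuclear phosphatase that acts chiefly on the stress kinases p38 and JNK. In D21 rats it measured 2.36, 2.72 and 2.62 in whole cervix (rats 5, 6 and 7) and 4.36, 3.93 and 4.77 in Mφ-depleted cervix (rats 1, 2 and 4). In NP rats it measured 0.49, 0.86 and 1.37 in whole cervix (rats 8, 9 and 10) and 4.88, 4.57 and 3.63 in Mφ-depleted cervix (rats 5, 6 and 7). Every Mφ-depleted sample lay above every whole sample, D21 whole samples lay above NP whole samples, and the Mφ-depleted groups overlapped. With depletion Dusp1 rose 3.45-fold in D21 rats (log2 1.79, SE 0.36, limma adjusted p = 0.00739) and 10.9-fold in NP rats (log2 3.45, SE 0.36, limma adjusted p = 3.9e-05). In whole cervix it was 3.16-fold higher in D21 than in NP rats (log2 1.66, SE 0.36, limma adjusted p = 0.0243). Mφ-depleted D21 and NP rats had means of 4.35 ± 0.42 and 4.36 ± 0.65 (SD, n = 3 each), a difference of -0.00 with a 95% interval from -0.78 to 0.78.

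The rise of Dusp1 was thus smaller by 1.66 on the log2 scale in D21 rats, in which the whole-cervix level was higher to begin with. That difference had an SE of 0.51 and an unadjusted p of 0.00735, but the limma adjusted p was 0.116. Leaving out NP Mφ-depleted rat 7 gave -2.03 with an adjusted p of 0.0401, leaving out D21 Mφ-depleted rat 4 gave -1.87 with 0.0384, and weighting the arrays gave -1.85 with 0.0202. Within scan day 3 it was -0.52. Of 13 immediate-early transcription factors, 3 passed this test, against 2.40% of all genes, each with the larger rise in D21 rats. Egr1 was at 2.76 (SE 0.49, limma adjusted p = 0.0178). Egr4 at 3.68 and Fosl1 at 3.27 (limma adjusted p = 0.0297 and 0.0111) entered the test through the D21 Mφ-depleted group alone. None of their D21 whole samples was well above background, so their sizes and calls carry little weight. Fos had a difference of -2.26, which did not pass (SE 0.54, limma adjusted p = 0.0557).

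Dusp5, a nuclear phosphatase specific for the kinases ERK1 and ERK2, showed the largest D21 change among the members tested. Its values in D21 rats were -0.39, -1.11 and -0.74 in whole cervix and 3.33, 3.22 and 2.05 after depletion. In NP rats they were -2.11, -1.46 and -0.74 in whole cervix and 1.29, 2.64 and 0.71 after depletion. Whole and Mφ-depleted samples did not overlap, whereas D21 and NP samples did, in whole and in Mφ-depleted cervix. Dusp5 rose 12.2-fold in D21 rats (log2 3.61, SE 0.53, limma adjusted p = 0.00139) and 7.89-fold in NP rats (log2 2.98, SE 0.52, limma adjusted p = 0.00137). The NP call was lost by the methods' t-test. The difference between D21 and NP was 0.69 in whole cervix (95% interval -0.46 to 1.84) and 1.32 in Mφ-depleted cervix (0.17 to 2.47), and neither was called (limma adjusted p = 0.465 and 0.177).

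Dusp2, a phosphatase known from activated immune cells, was near background throughout. It was well above background in 2 of 3 NP whole arrays, 0 of 3 D21 whole arrays, and 2 of 3 Mφ-depleted arrays of each state, and so was not tested. Its NP whole values were -2.90, -4.35 and -3.24, and its D21 whole values -4.75, -5.59 and -5.92, which did not overlap. In whole cervix the D21 level was 1.71-fold lower when the lowest signal well above background on each D21 array was set against the NP mean. This is not a lower bound, since only 2 of 3 NP arrays were measured and rat 9 (-4.35) was not well above background. Values in Mφ-depleted cervix ran from -5.25 to -3.55 in NP and from -5.48 to -4.14 in D21 rats, and overlapped those of whole cervix.

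Nfkbia, the gene of IkBα and a direct NF-kB target, rose in both states. In D21 rats it measured 4.04, 4.22 and 4.18 in whole cervix and 6.70, 7.77 and 5.35 after depletion. In NP rats it measured 3.74, 3.35 and 3.60 in whole cervix and 4.93, 5.76 and 4.95 after depletion. The whole groups were tight (SD 0.10 in D21 and 0.20 in NP, n = 3 each) and the D21 Mφ-depleted group was wide (SD 1.21), with rat 2 highest and rat 4 lowest. Nfkbia rose 5.51-fold in D21 (log2 2.46, SE 0.49, limma adjusted p = 0.00698) and 3.14-fold in NP rats (log2 1.65, SE 0.48, limma adjusted p = 0.0226). The NP call was lost without NP Mφ-depleted rat 6 or without any of the NP whole rats 8, 9 and 10, with log2 values from 1.38 to 1.79 over the samples left out in turn, and with slide or scan day as a block (0.83 and 0.81). D21 exceeded NP by 0.58 in whole cervix (adjusted p = 0.504 in limma), where the groups did not overlap, and by 1.39 in Mφ-depleted cervix (adjusted p = 0.130 in limma), and neither was called. The latter was called with slide or scan day as a block (1.56), with array weights (1.89) and without D21 Mφ-depleted rat 4 (2.02), and was 0.40 within scan day 3.

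Nfkbiz encodes IkBζ, a nuclear member of the IkB family that helps transcribe a subset of NF-kB targets. Its D21 values were -2.96, -3.37 and -3.37 in whole cervix and -0.48, -1.85 and -0.35 after depletion. Its NP values were -3.51, -3.04 and -3.30 in whole cervix, the lowest not well above background, and -2.15, -0.77 and -1.61 after depletion. Whole samples of D21 and NP rats lay in the same range and every Mφ-depleted sample lay above it. Nfkbiz rose 5.07-fold in D21 (log2 2.34, SE 0.43, limma adjusted p = 0.00465) and 3.42-fold in NP rats (log2 1.77, SE 0.43, limma adjusted p = 0.00832). With normexp background correction and its offset of 50, the differences were 1.03 and 0.84 and neither was called. D21 and NP whole cervix differed by 0.05 (95% interval -0.89 to 0.99), a value that changed sign without NP whole rat 8 (-0.07) or D21 whole rat 5 (-0.09).

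The LOC683206 probe, named Tnfaip3 by its RefSeq gene number, had no position in the array files. Tnfaip3 encodes A20, a ubiquitin-editing enzyme that stops NF-kB signalling upstream of IkBα. In D21 rats the probe measured -3.97, -4.43 and -4.19 in whole cervix, well above background in 1 of 3, and -0.96, -1.41 and -0.87 after depletion. In NP rats it measured -3.85, -5.03 and -3.99 in whole cervix, again measured in 1 of 3, and -1.63, -0.80 and -1.73 after depletion. The whole samples were near background and every Mφ-depleted sample was well above it. It was tested through the Mφ-depleted groups alone, so the call carries little weight, and its size is a bound: at least 8.58-fold in D21 and at least 5.00-fold in NP rats, with whole samples set no lower than the lowest signal well above background on their arrays. With normexp correction the differences were 1.33 and 1.34 and neither was called. Mφ-depleted D21 and NP rats differed by 0.30 (95% interval -0.47 to 1.08).

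Btg2 encodes an antiproliferative protein that recruits the CCR4-NOT deadenylase to messenger RNA. In D21 rats it measured 2.67, 2.91 and 3.16 in whole cervix and 4.42, 4.16 and 4.00 after depletion. In NP rats it measured 0.95, 1.88 and 1.24 in whole cervix and 3.21, 3.88 and 2.93 after depletion. No pair of groups compared overlapped, and the order was NP whole, D21 whole, NP Mφ-depleted and D21 Mφ-depleted by their means of 1.36 ± 0.47, 2.92 ± 0.25, 3.34 ± 0.49 and 4.20 ± 0.21 (SD, n = 3 each). Btg2 rose with depletion 2.43-fold in D21 (log2 1.28, SE 0.31, limma adjusted p = 0.0180) and 3.96-fold in NP rats (log2 1.98, SE 0.31, limma adjusted p = 6.4e-04). In whole cervix it was 2.95-fold higher in D21 than in NP rats (log2 1.56, SE 0.31, limma adjusted p = 0.0192). The D21 Mφ-depleted minus NP Mφ-depleted difference of 0.85 was not called (limma adjusted p = 0.145). The D21 depletion call was lost with quantile normalization and with slide or scan day as a block, and the whole-cervix call with normexp correction.

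Ier2, an immediate-early gene of a nuclear protein, had the smallest errors of the members tested. Its D21 values were 2.31, 2.42 and 2.17 in whole cervix and 4.93, 5.05 and 4.36 after depletion. Its NP values were 1.74, 1.80 and 2.18 in whole cervix and 3.72, 4.00 and 3.31 after depletion. Whole D21 and NP samples met at rat 7 of D21 and rat 10 of NP, and the Mφ-depleted groups were apart. Ier2 rose 5.57-fold in D21 (log2 2.48, SE 0.26, limma adjusted p = 2.1e-04) and 3.41-fold in NP rats (log2 1.77, SE 0.26, limma adjusted p = 4.2e-04). Mφ-depleted D21 rats exceeded Mφ-depleted NP rats 2.15-fold (log2 1.10, SE 0.26, limma adjusted p = 0.0371), a call that was lost without NP Mφ-depleted rat 7 or D21 Mφ-depleted rat 2 and with normexp correction or quantile normalization.

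Ier3 was the member that depletion did not move past the threshold. It measured 3.21, 2.96 and 3.04 in D21 whole cervix and 3.59, 4.28 and 3.08 after depletion. It measured 1.88, 2.25 and 2.59 in NP whole cervix and 1.84, 2.64 and 2.80 after depletion. Whole and Mφ-depleted samples overlapped in both states, whereas D21 samples lay above NP samples in whole and in Mφ-depleted cervix. The depletion differences were 0.58 in D21 (95% interval -0.19 to 1.35, limma adjusted p = 0.240) and 0.19 in NP rats (-0.58 to 0.95, limma adjusted p = 0.713). D21 minus NP was 0.83 in whole cervix (SE 0.35, limma adjusted p = 0.186), not called, and 1.23 in Mφ-depleted cervix (SE 0.35, unadjusted p = 0.00451, limma adjusted p = 0.0734), called by the unadjusted rule. That call was lost with slide or scan day as a block and without NP Mφ-depleted rat 5 or D21 Mφ-depleted rat 1 or 2.

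Zfp36, whose protein tristetraprolin binds AU-rich messages such as that of Tnf, was not tested. Its probe was well above background in 1 NP whole, 0 D21 whole, 1 NP Mφ-depleted and 2 D21 Mφ-depleted arrays. D21 whole values were -4.83, -5.71 and -5.03 and D21 Mφ-depleted values -2.52, -5.17 and -3.27, which overlapped. With the D21 whole arrays set as for Dusp2, the D21 Mφ-depleted mean was 1.54-fold higher. This is not a lower bound, since D21 Mφ-depleted rat 2 (-5.17) was not well above background. NP whole values ran from -5.26 to -3.03 and NP Mφ-depleted values from -5.60 to -2.41. The plot of each rat's values shows these dim probes as open points.

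**Figure D2:**
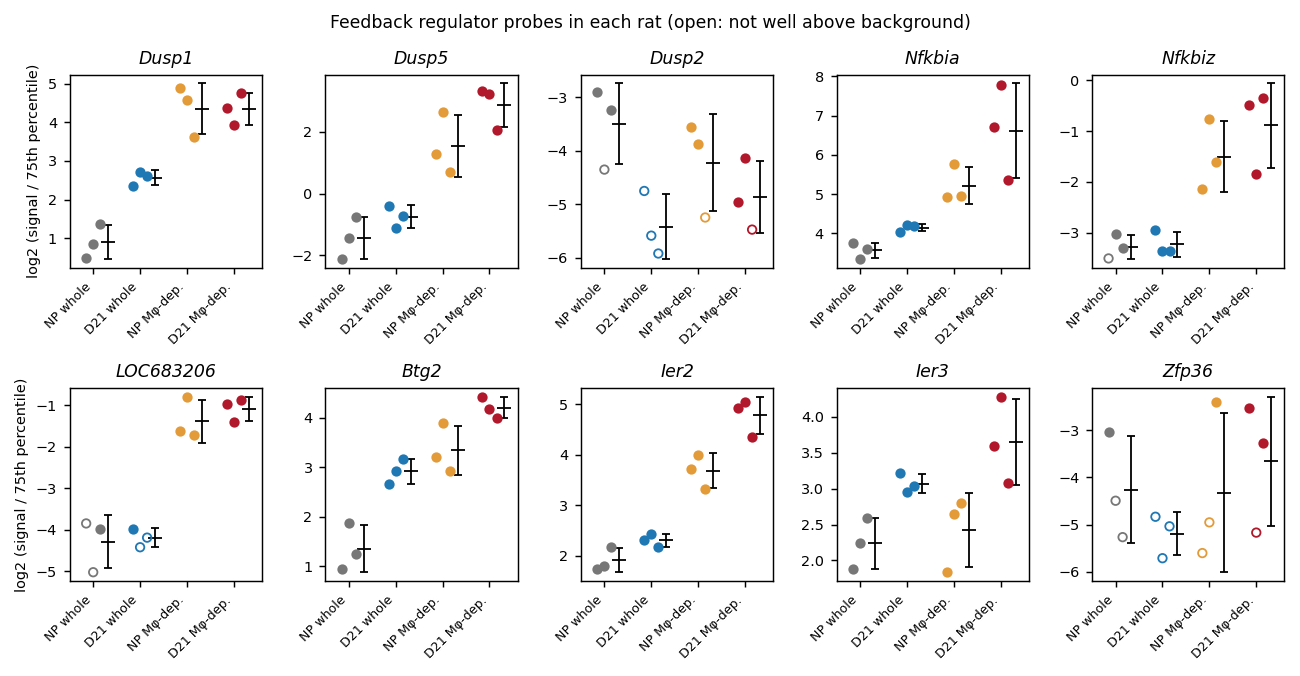
Log2 of signal over the array's 75th percentile (y axis) for each probe in each rat (points) by group (x axis), with open points where the probe was not well above background; the bar beside each group is the mean with its SD, n = 3. The Mφ-depleted points of Dusp1, Dusp5, Nfkbia, Nfkbiz, LOC683206, Btg2 and Ier2 lie above the whole points of the same state, and those of Ier3 do not.

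The groups were spread unevenly over scan days and slides, so differences are also given within a day or slide. Within scan day 3, D21 Mφ-depleted rat 4 exceeded the D21 whole mean by 2.20 for Dusp1, 2.80 for Dusp5, 1.21 for Nfkbia, 2.89 for Nfkbiz, 1.08 for Btg2, 2.06 for Ier2 and 3.32 for LOC683206, but by 0.01 for Ier3. NP Mφ-depleted rat 7 exceeded the NP whole mean by 2.72 for Dusp1, 2.14 for Dusp5, 1.39 for Nfkbia, 1.67 for Nfkbiz, 1.57 for Btg2, 1.41 for Ier2 and 2.56 for LOC683206, and by 0.56 for Ier3. So the 6 members called with depletion lay above every whole array of their state on this day too. No slide held both kinds of D21 array. With slide as a block, which links the D21 groups through NP arrays, the D21 calls fell from 6 to 2, Dusp5 (3.81) and Ier2 (2.50). The others had differences of 2.34 for Dusp1, 2.39 for Nfkbiz, 1.83 for Nfkbia and 0.78 for Btg2. Without the block these were 1.79, 2.34, 2.46 and 1.28.

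In NP rats, slide 1 held Mφ-depleted rat 7 with whole rats 8 and 9, and there the difference was 2.95 for Dusp1, 2.49 for Dusp5, 1.41 for Nfkbia, 1.66 for Nfkbiz, 1.51 for Btg2 and 1.54 for Ier2. With slide as a block 5 of the 6 NP calls stood, and Nfkbia (0.83) was lost. Slide 2 held D21 whole rats 5, 6 and 7 with NP whole rat 10, and there Dusp1 was 1.20 and Btg2 1.67 higher in D21. These are the values with slide as a block as well, under which Dusp1 was lost and Btg2 kept its call. Ier2 in Mφ-depleted D21 minus NP was 1.04 on slide 1 and 1.19 on slide 3, and Ier3 was 0.28 and 2.04.

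Other regulators of the same pathways were read from lists set by name. The remaining MAPK feedback genes, further Dusp genes with the Sprouty and Spred inhibitors and Errfi1, were called at shares that so few genes cannot tell from the background. With depletion 1 of 9 tested was called higher in D21 rats (median 0.10), against 7.71% of all genes. In NP rats 0 of 8 were called higher and 1 lower (median 0.57), against 10.8% and 13.6%. Errfi1, an inhibitor of the epidermal growth factor receptor, rose by 1.65 in D21 rats (SE 0.38, limma adjusted p = 0.0146), and Dusp3 fell by 1.05 in NP rats (SE 0.27, limma adjusted p = 0.0115). Among MAPK kinases, 1 of 17 was called in D21 and 1 of 16 in NP rats, in both cases Map3k8, a kinase upstream of ERK, at 2.42 (SE 0.37) and 1.46 (SE 0.36). Map3k8 cleared background in 2 of 3 NP whole samples. Of the 13 MAPK kinases that cleared it in all 6 NP samples, 0 were called. In D21 against NP whole cervix, 0 of 9 MAPK feedback genes were called by limma, with 1 at an unadjusted p below 0.05 and 0 by the methods' t-test. Of 17 MAPK kinases, 2 were called higher and 1 lower in D21, against 5.38% and 3.09% of all genes. Mapk12 at 1.89 (SE 0.36) and Mapk11 at 1.44 (SE 0.33) were higher. Mapk11 cleared background in 2 of 3 NP whole samples. Map2k6 was lower at -1.29 (SE 0.38), with an adjusted p of 0.0704 in limma.

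On the NF-kB side, 2 of 9 other inhibitors were called higher with depletion in D21 rats (median -0.19) and 1 of 8 in NP rats (median 0.54). The shares over all genes were 7.71% higher and 10.0% lower in D21, and 10.8% and 13.6% in NP rats. Nfkbid, a further nuclear IkB, cleared background in 0 of 3 D21 whole samples and after depletion was at least 4.78-fold higher. It was tested through the Mφ-depleted group alone, so its call carries little weight. Of the 8 inhibitors that cleared background in all 6 D21 samples, 1 was called higher (median -0.27). Bcl3 rose by 1.07 in D21 (SE 0.34, limma adjusted p = 0.0445) and by 1.52 in NP rats (SE 0.34, limma adjusted p = 0.00564). Of the NF-kB subunits and their kinases, Chuk fell by 1.36 in D21 rats (SE 0.41), while Ikbke at 1.84 (SE 0.41) and Nfkb2 at 1.25 (SE 0.27) rose in NP rats, out of 8 tested in each. Of the NF-kB target cytokines and adhesion genes, 3 of 8 rose and 1 fell in each state, with medians of 1.67 and 0.99. Some of these passed the filter through 1 group alone. Of the genes that cleared background in all 6 samples compared, 1 of 3 rose and 1 fell in D21 rats (median -0.56). For NP rats, 1 of 4 such genes rose and 0 fell (median 0.52). The neutrophil chemokines Cxcl1 and Cxcl2 cleared background in 1 of 3 whole samples of each state, and in all after depletion. By the bound used for LOC683206 they were higher by at least 57.3- and 59.6-fold in D21 and by at least 24.97- and 8.98-fold in NP rats. Vcam1 fell by 1.36 in D21 rats (SE 0.33) and Il1b, a cytokine of macrophages, fell by 1.93 in NP rats (SE 0.55). In D21 against NP whole cervix, Tnip1, a partner of A20, was 1.32 higher (SE 0.38, limma adjusted p = 0.0683) and Vcam1 1.84 higher (SE 0.32, limma adjusted p = 0.0109).

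Relatives of Zfp36 and Btg2 were mixed. With depletion, 3 of 9 rose and 1 fell in D21 rats (median 0.42), against 7.71% and 10.0% of all genes. For NP rats, 2 of 9 rose (median 0.66), against 10.8% of all genes. Of the 7 that cleared background in all 6 NP samples, 1 rose. Zc3h12a cleared it in 2 of 3 NP whole samples. Zc3h12a, which encodes the ribonuclease regnase-1, rose by 1.73 (SE 0.34) in D21 and by 3.04 (SE 0.34) in NP rats. Tob2 rose by 1.31 (SE 0.36) and Btg3 fell by 1.64 (SE 0.47) in D21 rats, and Ier5 rose by 1.08 (SE 0.32) in D21 and by 1.38 (SE 0.32) in NP rats. In whole cervix, Zfp36l1 at 1.49 (SE 0.40) and Zc3h12a at 1.18 (SE 0.34) were higher in D21, with adjusted p-values of 0.0512 and 0.0656 in limma. Of the 8 that cleared background in all 6 whole samples, 1 was called higher.

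Other stress feedback genes were mixed as well. Of 17 other stress feedback genes, 4 rose and 2 fell in D21 rats (median 0.07), against 7.71% and 10.0% of all genes. For NP rats, 8 rose and 2 fell (median 1.11), against 10.8% and 13.6%. Of the 14 that cleared background in all 6 NP samples, 7 rose and 2 fell. Those that fell were Klf2 and Rgs2 in D21 rats, and Socs1 and Rgs2 in NP rats. Atf3, a stress-induced repressor of transcription, rose by 5.54 (SE 0.47) and 5.27 (SE 0.47) in D21 and NP rats, and Gadd45b by 3.34 (SE 0.47) and 2.58 (SE 0.47). Klf6 rose by 3.31 (SE 0.59) and 1.90 (SE 0.59), and Ppp1r15a, which restores translation after stress, by 3.25 (SE 0.31) and 2.85 (SE 0.31). In whole cervix 4 of 17 were higher in D21, against 5.38% of all genes. Among them were Gadd45a at 1.74 (SE 0.34), Cish at 1.67 (SE 0.51) and Trib1 at 1.61 (SE 0.38). Trib1 cleared background in 2 of 3 NP whole samples. Of the 15 genes that cleared it in all 6 whole samples, 3 were higher.

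Most immediate-early transcription factors tested rose with depletion: 11 of 13 rose in D21 and 9 of 11 in NP rats, with medians of 2.13 and 2.19, or 2.13 and 2.03 with genes below background in whole cervix set at their bounds. Some had passed the filter through the Mφ-depleted group alone, Fosl1, Egr4 and Fosb in D21 and Fosb and Nr4a3 in NP rats. Of the 9 that cleared background in all 6 samples compared, 8 rose in D21 and 7 in NP rats. The shares called higher over all genes tested were 7.71% in D21 and 10.8% in NP rats. In D21 rats Fosl1 was at least 11.98-fold and Egr4 at least 10.8-fold higher, and Fosb at least 11.4-fold in D21 and at least 3.67-fold in NP rats, none with a whole array well above background. Egr1 rose by 4.41 (SE 0.35) in D21 and 1.65 (SE 0.35) in NP rats, Nr4a1 by 2.83 (SE 0.27) and 3.25 (SE 0.27), and Fos by 2.13 and 4.40 (SE 0.38 each). Between whole samples, Fos and Fosl2, at 2.53 (SE 0.38) and 1.19 (SE 0.26), were the 2 of 10 called higher in D21, against 5.38% of all genes. The heat shock list, chaperones of unfolded proteins, had 4 of 7 higher in D21 and 3 of 7 in NP rats, against 7.71% and 10.8% of all genes. Hspa1b rose by 4.78 (SE 0.25) and 4.28 (SE 0.25), Dnajb1 by 3.09 (SE 0.21) and 2.00 (SE 0.20), and Hspb1 by 1.35 (SE 0.27) and 1.58 (SE 0.27). Of 10 housekeeping genes limma called 0 in either state, with medians of -0.00 and 0.02, 2 and 3 at an unadjusted p below 0.05, and 0 by the methods' t-test. The plot of calls by list sets these counts beside each other.

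**Figure D3:**
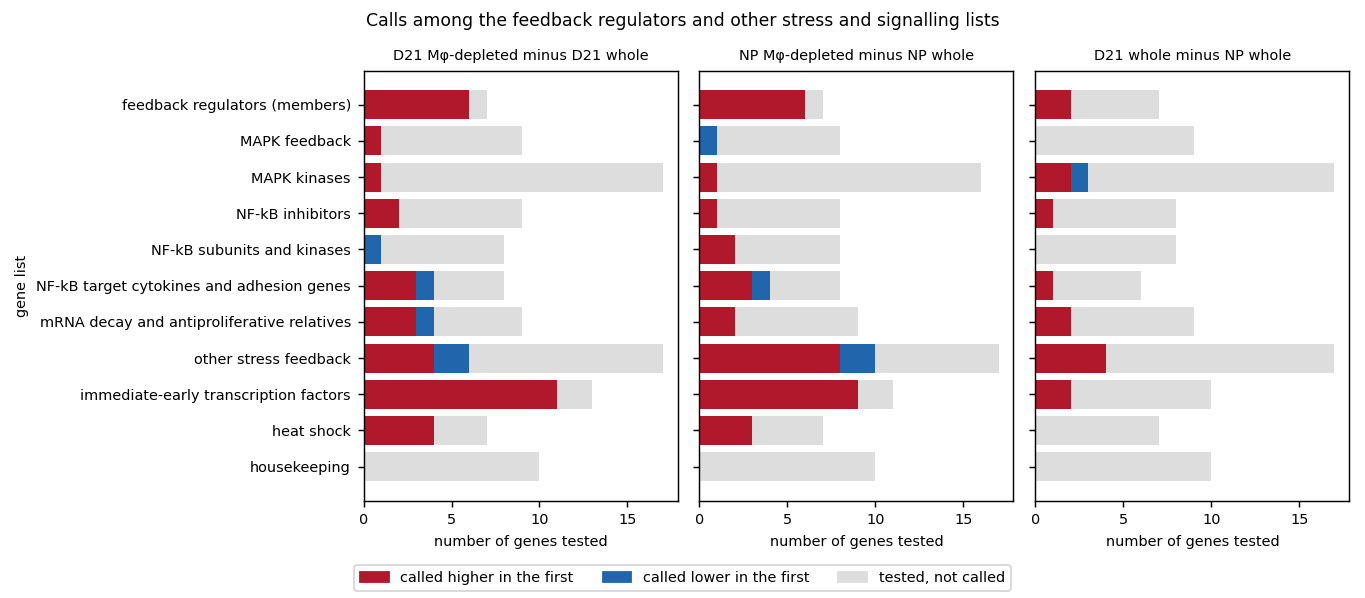
Number of genes tested in each list (x axis, bar length) by list (y axis) in 3 comparisons, divided into called higher in the first-named group, called lower, and not called. The members, with 6 of 7 called higher in each depletion comparison, and the immediate-early transcription factors, with 11 of 13 and 9 of 11, have the largest shares in red, and the housekeeping bars are grey throughout.

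The members well above background in every rat were 6: Dusp1, Dusp5, Nfkbia, Btg2, Ier2 and Ier3. Centring each on its own mean and taking the median gave a profile of -1.71 to -1.29 on NP whole, -0.77 to -0.49 on D21 whole, 0.11 to 0.90 on NP Mφ-depleted and 1.12 to 1.66 on D21 Mφ-depleted arrays. The 4 groups did not overlap, in the same order as the epithelial marker levels above, and the part of the epithelial share was not tested. Ier2 followed the profile most closely, with a root mean square difference of 0.21 over 12 arrays, then Btg2 (0.38), Nfkbia (0.46), Dusp1 (0.65), Dusp5 (0.77) and Ier3 (0.89). Among 10933 other genes well above background on every array, the nearest were Snf1lk (0.29), a salt-inducible kinase, Ephb3 (0.30), an ephrin receptor, Jun (0.31), a subunit of AP-1, Itgb6 (0.33), an integrin chain, and Ddit4 (0.33), a stress-induced inhibitor of mTOR. The plot of the profile shows that D21 Mφ-depleted rat 4, on scan day 3, was below the other D21 Mφ-depleted rats for the median, as NP Mφ-depleted rat 7 of the same day was for its group.

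**Figure D4:**
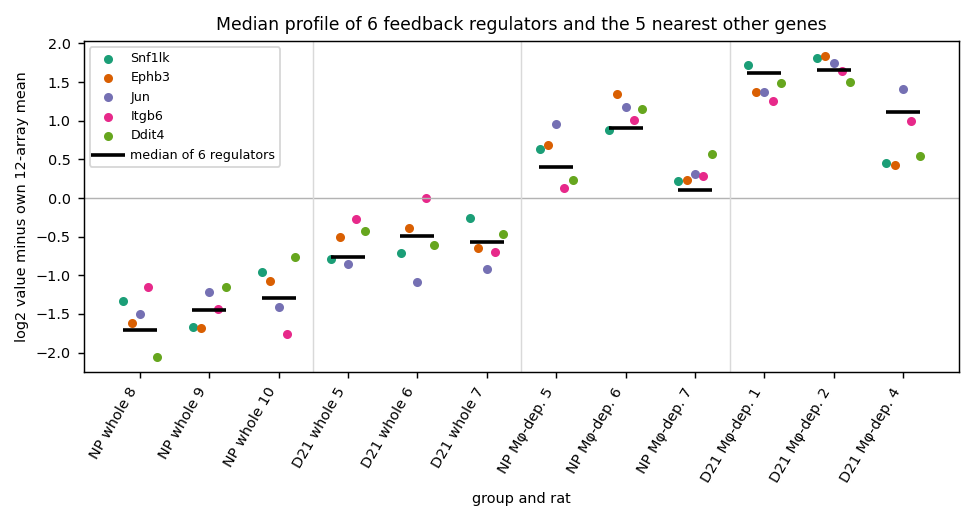
Log2 value minus the gene's own mean over 12 arrays (y axis) on each array (x axis, group and rat), for the median of 6 regulators (black bars) and the 5 other genes with the nearest profiles (coloured points). The black bars rise by group from -1.71 to -1.29 in NP whole to 1.12 to 1.66 in D21 Mφ-depleted cervix without overlap.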

How the data were processed

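Cells of 12 rat cervices, 3 rats in each of 4 groups, were measured on 1-colour Agilent arrays, 1 rat to an array. Groups and rat numbers come from the labels. The authors deposited scanner intensity values of each spot from Agilent Feature Extraction 9.5.3.1, with background subtracted and no normalization between arrays; positions are in rn4. A further deposited table holds ratio values, each intensity divided by its array's 75th percentile and rounded, which was used as an alternative; 94.4% to 99.8% of its values for genes well above background lay within 0.1 log2 of those computed here.

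Spots of a probe were averaged without control spots and outliers, and log2 of the 75th percentile was subtracted. RefSeq accessions named 17328 of 30367 probes (57.1%), the array files the rest; for 3397 genes with several probes the brightest was used. Each member had 1 probe. limma 3.58.1 (R 4.3.3) was fitted to all 12 arrays with a mean for each group and no covariates, and Benjamini-Hochberg adjustment ran over all genes tested. Scripts were tested on simulated data. The methods' t-test is the test of unequal variances that the study names. Python 3.11.15, pandas 2.3.3 and matplotlib 3.10.9 served for the rest. Exact permutation of 3 against 3 arrays cannot go below p = 0.1, and the number of arrays limits the precision. The limma p-values measure the spread between arrays within groups, pooled over the 4 groups. With 1 rat to an array, that spread can hold rat, handling, slide and scan day together. A bound ("at least") sets the brighter group's mean against, on each array of the dimmer group, the higher of the lowest signal well above background and the probe's own.

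Named were all members, up to 3 called genes with the largest change from each list and depletion comparison, up to 3 in whole cervix, the 5 nearest profiles, and Cd68. The other stress feedback genes called lower with depletion are named as well. The members, lists and tests were chosen with earlier results of these data known. Marker lists besides Mφ and epithelium are neutrophil (called lower 1 of 4 in D21 and 1 of 4 in NP), mast cell (3 of 4 and 2 of 3), T and NK cell (1 of 4 and 1 of 2), smooth muscle (5 of 7 and 7 of 7), fibroblast (2 of 8 and 7 of 8) and endothelial (3 of 8 and 2 of 7). In NP rats, Kit of the mast cell list (2.08, SE 0.50) and Vwf of the endothelial list (1.33, SE 0.39) were called higher. Mφ markers also included Cd68. Of 9 epithelial markers tested, 4 were called higher with depletion in D21, 6 in NP, and 6 in D21 against NP whole cervix.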

Additional observations from a re-analysis of the deposited data

How the results depend on the processing

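Of 1012 values of single genes under the alternatives, 926 kept direction and call, 61 lost a call, 10 gained a call and 15 turned sign. No paired analysis was possible because the groups compared share no rat numbers. Members called in D21 against NP whole cervix, 2, were 0 by the methods' t-test with or without adjustment, 1 with normexp correction and 1 with slide as a block. The 6 called with depletion in D21 rats were 0 by the adjusted methods' t-test and 2 with slide as a block; the 6 in NP rats were 3 and 2 by the methods' t-test without and with adjustment. The 2 called in D21 against NP Mφ-depleted cervix were 0 by either t-test, on 6 arrays alone or with normexp correction, and 1 with the adjusted threshold, quantile normalization, the percentile over detected probes, or scan day 3 alone (1 array against 1, chosen after seeing the data, the lone arrays assumed to vary like the whole groups); leaving out rats gave 0 to 4. For the difference between states, 0, it was 1 with array weights, and 0 to 1 with rats left out.

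Signs turned for values that were not called. Dusp5 in whole cervix was -0.0040 with slide as a block, Nfkbiz -0.089 to 0.17 with rats left out (-0.07 without NP whole rat 8, -0.089 without D21 whole rat 5), and Ier3 with depletion in NP rats -0.047 with array weights. Dusp1 in D21 against NP Mφ-depleted cervix was 0.039 with slide or scan day as a block, -0.37 to 0.26 with rats left out (0.26, 0.10 and 0.21 without NP rat 5, NP rat 6 or D21 rat 2), and 1.14 on scan day 3. The difference between states was, for LOC683206, -0.010 with normexp, -0.11 with quantile normalization and -0.0055 to 0.58 with rats left out (-0.0055 without NP whole rat 8), and on scan day 3 -0.18 for Nfkbia and -0.55 for Ier3.

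Counts over all genes moved more than 1.5-fold in 44 of 131 values. D21 against NP whole cervix ran from 0 by the adjusted t-test to 2192 with array weights (1191 as reported); depletion from 11 by that test to 4589 without D21 Mφ-depleted rat 4 in D21 (2530), and from 711 by that test in NP rats (3268); D21 against NP Mφ-depleted from 0 to 2448 without that rat (1008); the difference between states from 29 with normexp to 2931 with array weights (350). Signal over background limits Dusp2, Zfp36 and the whole samples of Nfkbiz and LOC683206.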
